A study of Homo sapiens with 3 samples.

Results

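The genes described here encode the machinery that copies DNA in S phase and the factors that bring cells into it. The list was given by name: 10 licensing genes, 6 genes of helicase activation (MCM10, CDC45 and the GINS genes), 6 of polymerases and primase, 6 of the sliding clamp and its loader, 3 of single-strand binding, 3 of nucleotide supply and 5 E2F and cyclin genes. These are 39 of 19866 protein-coding genes in the RefSeq table. They were examined in chromatin immunoprecipitation sequencing of HCT116 cells that overexpressed Flag-tagged VCP. HCT116 is a line established from a human colorectal carcinoma. The same cells, grown alike, gave 1 library precipitated with anti-VCP, 1 precipitated with anti-Flag and 1 input, after formaldehyde fixation and digestion with micrococcal nuclease. The sources used here do not say whether the tagged line was a clone or a pool. The antibody to VCP can also see the cells' own VCP, while the Flag antibody is directed at the tagged copy. A gene counted as marked when the summit of a listed peak lay within 1 kb of either of its ends. With 1 library per antibody there was no replicate check and no test between conditions, and intervals below cover counting error only.

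DNA replication begins when the origin recognition complex, CDC6 and CDT1 load the ring-shaped MCM2 to MCM7 helicase onto DNA. CDC45 and the GINS complex join the ring to form the active CMG helicase, primase and DNA polymerase alpha start new strands, and RFC loads the PCNA clamp for polymerases delta and epsilon. Many of these genes are switched on together before S phase by E2F transcription factors. VCP, also called p97, is an ATPase that pulls ubiquitin-tagged proteins out of complexes, and both CDT1 and the CMG helicase of finished forks are among its known substrates on chromatin. Peaks at the genes that encode these proteins are a separate matter from contacts with the proteins themselves, and the peak lists report only the former.

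There were 1816 VCP and 5719 Flag peaks, of which 1803 and 5692 lay on the chromosomes. Summits had a median of 10 reads among VCP peaks and 11 among Flag peaks. A false discovery rate q of at most 0.05 was reached by 6.50% of VCP peaks and by 33.8% of Flag peaks. A peak list does not measure expression and could not check the cell type: 0 of 8 markers of colorectal epithelium, EPCAM, CDH1 and CDX2 among them, and 0 of 8 markers of other cells had a summit of either list at an end.

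Flag peaks stood at 7 replication genes. They were MCM7 and ORC6 of the licensing group, the helicase gene CDC45, the primase gene PRIM1, the DNA polymerase epsilon gene POLE, and the clamp loader genes RFC2 and RFC4. This was 17.9% of the 39 (exact binomial 95% interval 7.54 to 33.5), beside 11.7% of all protein-coding genes, a share inside that interval. The VCP list marked 1 gene, RRM1, which encodes the large subunit of ribonucleotide reductase (2.56%, 0.0649 to 13.5), beside 2.34% of all protein-coding genes. No gene was marked by both lists, and 31 of the 39 were marked by neither. Among all protein-coding genes 0.987% were marked by both. The 0 of 39 seen here allows a share of up to 7.69% (3 counts), or 9.03% by the exact interval, so this number of genes could not show a difference from that level.

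The promoters of 5 genes are printed because a Flag peak lay over them: CDC45, PRIM1, POLE, RFC2 and RFC4. Each line is the 250 bases before the gene's outermost annotated start, 5′ to 3′ on the gene's own strand, from RefSeq (GRCh38.p14, the same build as hg38). Capitals mark matches, on either strand, to the motifs searched. These were the E2F motif (TTTCCCGC or TTTGGCGC), the CCAAT box (CCAAT, bound by NF-Y), the GC box (GGGCGG, bound by SP1-type factors), an ETS motif (CCGGAAG) and the CHR element of late cell cycle genes (TTTGAA). The windows are chr22:19479216-19479465 on the plus strand for CDC45, chr12:56752324-56752573 on the minus strand for PRIM1, chr12:132687343-132687592 (minus) for POLE, chr7:74254400-74254649 (minus) for RFC2 and chr3:186806483-186806732 (minus) for RFC4.
CDC45: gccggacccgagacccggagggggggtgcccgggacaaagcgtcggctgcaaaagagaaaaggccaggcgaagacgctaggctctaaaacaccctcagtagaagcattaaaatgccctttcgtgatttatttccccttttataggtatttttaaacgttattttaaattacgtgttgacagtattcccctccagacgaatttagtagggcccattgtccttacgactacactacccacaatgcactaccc
PRIM1: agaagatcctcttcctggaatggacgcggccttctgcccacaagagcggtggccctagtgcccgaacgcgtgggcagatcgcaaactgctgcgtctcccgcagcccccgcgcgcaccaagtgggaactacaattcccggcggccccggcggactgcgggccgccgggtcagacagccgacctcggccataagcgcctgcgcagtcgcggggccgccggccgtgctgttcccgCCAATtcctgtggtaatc
POLE: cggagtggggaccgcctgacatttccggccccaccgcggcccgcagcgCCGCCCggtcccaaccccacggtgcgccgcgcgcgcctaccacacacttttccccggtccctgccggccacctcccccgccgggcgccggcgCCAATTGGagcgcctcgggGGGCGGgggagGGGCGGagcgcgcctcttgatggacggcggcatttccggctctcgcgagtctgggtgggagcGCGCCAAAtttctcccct
RFC2: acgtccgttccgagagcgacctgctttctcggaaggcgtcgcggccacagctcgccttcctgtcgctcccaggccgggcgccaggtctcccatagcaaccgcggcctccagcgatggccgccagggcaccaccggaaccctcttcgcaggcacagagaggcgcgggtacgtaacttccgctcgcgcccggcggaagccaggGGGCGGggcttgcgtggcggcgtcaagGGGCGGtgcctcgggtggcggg
RFC4: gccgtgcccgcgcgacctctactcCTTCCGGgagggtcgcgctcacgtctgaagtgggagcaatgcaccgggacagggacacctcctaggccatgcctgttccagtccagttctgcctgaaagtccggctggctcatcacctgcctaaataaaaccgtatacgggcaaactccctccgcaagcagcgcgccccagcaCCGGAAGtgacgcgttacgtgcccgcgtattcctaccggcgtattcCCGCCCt

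The peaks covered all 250 printed bases at CDC45 and RFC2, 213 at POLE, 157 at PRIM1 and 114 at RFC4. The CDC45 window held 0 matches to these motifs and had the lowest GC content of the 5, 48.4%, whereas the POLE window was 75.2% GC. CDC45 did have a GC box in the 300-base window used for the motif shares below, which adds 50 bases after the start. In POLE an E2F match lay 18 to 11 bases before the start, outside the peak. Its 3 GC boxes and 2 CCAAT matches, which overlap on opposite strands, lay further out. The PRIM1 window held 1 CCAAT box, 18 to 14 bases before the start. The RFC2 window held 2 GC boxes, and the RFC4 window held 2 ETS matches and 1 GC box. The peaks of MCM7, ORC6 and RRM1 covered none of the same 250 bases of those genes, and their windows are not printed.

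Among licensing genes, MCM7, a subunit of the helicase ring, had a Flag peak on chromosome 7 (100100353 to 100100817) with a fold enrichment of 3.89. Fold enrichment is the authors' ratio, which equals the summit reads plus 1 over the local background plus 1. Coordinates are on hg38. Its summit rested on 17 reads (exact Poisson 95% interval 9.90 to 27.2) over a background of 3.63, with -log10 q of 2.63. The summit lay 694 bp inside the outermost start of MCM7 but 51 bp from another annotated start of the gene. It was also 91 bp from the end of AP4M1, an adaptor complex gene, whose end lies 603 bp inside MCM7.

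ORC6, the smallest subunit of the origin recognition complex, was marked by a peak 912 bp outside the gene on chromosome 16 (46688719 to 46688907). It had a fold enrichment of 3.76, 13 reads (6.92 to 22.2) and -log10 q of 1.73. Of the 7 marked genes ORC6 was the one nearest to the 1 kb limit. The summit lay closer to VPS35, a gene of the retromer sorting complex, 431 bp from its end. Just outside the limit, the nearest Flag summits were 1142 bp from E2F1 and 2150 bp from CDT1.

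The other 8 licensing genes had no summit of either list within 1 kb. CDT1 had a Flag peak 2150 bp beyond its far end on chromosome 16 (88811236 to 88811728) with a fold enrichment of 5.51, 22 reads (13.8 to 33.3) and -log10 q of 6.67. This exceeded the -log10 q of all 7 peaks at replication genes, and it lay 520 bp from the end of APRT, a purine salvage enzyme gene. The nearest summits to CDC6, which recruits CDT1 and the helicase, were 10.3 kb away in the VCP list and 13.3 kb away in the Flag list. For MCM2, MCM3, MCM4, MCM5, MCM6 and ORC1 the nearest Flag summit was between 100 kb (MCM5) and 308 kb (MCM6) away. Of the 6 genes of the helicase ring, 1 carried a Flag peak and 5 did not, beside 11.7% of all protein-coding genes that carried one.

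In the helicase activation group CDC45 had the peak with the highest fold enrichment and -log10 q of the 8 marked genes. This Flag peak ran from 19479201 to 19479684 on chromosome 22, with a fold enrichment of 4.54, 20 reads (12.2 to 30.9) over a background of 3.63, and -log10 q of 4.39. Its summit lay 102 bp inside CDC45 and 375 bp from UFD1, a neighbour whose end is 273 bp from the CDC45 start and whose product is a VCP cofactor. Of the Flag peaks at ends of protein-coding genes, 92.3% had a lower -log10 q. The nearest VCP summit was 31.6 kb from it. The other 5 genes of the group had no summit within 1 kb: the nearest Flag summit was 33.0 kb from GINS4, 61.7 kb from GINS2, 91.2 kb from MCM10, 263 kb from GINS3 and 439 kb from GINS1.

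In the polymerase group, the primase gene PRIM1 had a Flag peak across its start on chromosome 12 (56752134 to 56752480), with the summit 111 bp inside the gene. The fold enrichment was 4.21, with 11 reads (5.49 to 19.7) and -log10 q of 1.87. Further Flag summits lay 6317 bp from the far end of PRIM1, 36 bp from the end of NACA (fold enrichment 4.26), and 6714 bp before its start (3.51). POLE, the catalytic subunit of DNA polymerase epsilon, had a peak of 214 bp on chromosome 12 (132687380 to 132687593), with a fold enrichment of 4.41, 15 reads (8.40 to 24.7) and -log10 q of 3.03. Its summit lay between POLE and PXMP2, a peroxisomal membrane protein gene, 194 bp from the former and 51 bp from the latter. POLA1, POLA2, POLD1 and POLE2 were not marked. The nearest Flag summits were 9.02 kb from POLA2 and 8.96 kb from POLE2, at the ends of CDC42EP2 and DNAAF2, and POLD1 had its nearest summit, 13.6 kb away, in the VCP list.

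PCNA, the clamp itself, had no summit nearer than 485 kb in the Flag list or 921 kb in the VCP list. Of its loader genes, RFC2 had a Flag summit 4 bp from its start, the closest of any of the 39. That peak, on chromosome 7 (74254365 to 74254818), had a fold enrichment of 3.98, 12 reads (6.20 to 21.0) and -log10 q of 1.83. RFC4 had the weakest of the 7, on chromosome 3 (186806619 to 186806976), with a fold enrichment of 3.51, 9 reads (4.12 to 17.1) and -log10 q of 0.813, which corresponds to a q of 0.154. Its summit lay 415 bp before the start. Near the far end of RFC4 the VCP list had 2 summits, 6059 and 6555 bp outside the gene, both at the end of EIF4A2, a translation initiation factor gene. RFC1, RFC3 and RFC5 were not marked, with the nearest Flag summits 534, 692 and 30.1 kb away.

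The single-strand binding genes RPA1, RPA2 and RPA3, whose products coat unwound DNA, carried no peak within 1 kb, and the nearest summit of either list was at least 105 kb away. In nucleotide supply RRM1 held the only VCP peak at any of the 39 genes. Its bounds were 4094783 and 4094989 on chromosome 11 and its summit lay 131 bp inside the gene, with a fold enrichment of 3.28, 8 reads (3.45 to 15.8) over a background of 1.74, and -log10 q of 0.206 (q = 0.623). The nearest Flag summit was 253 kb away. RRM2, the small subunit gene of the same enzyme, had its nearest summit 24.9 kb away (Flag), and TYMS, which makes thymidylate, 172 kb away (Flag).

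None of the 5 E2F and cyclin genes was marked in either list. The closest summit was that at E2F1, 1142 bp outside its far end on chromosome 20 in the Flag list (fold enrichment 3.70, 10 reads, -log10 q 1.23). E2F2, CCNE1 and CCNE2 had Flag summits 23.9, 25.5 and 52.7 kb away, and for CCNA2 the nearest was 1100 kb away. E2F2 encodes an activator of S-phase genes like E2F1, and the cyclin genes encode partners of CDK2.

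**Figure D1:**
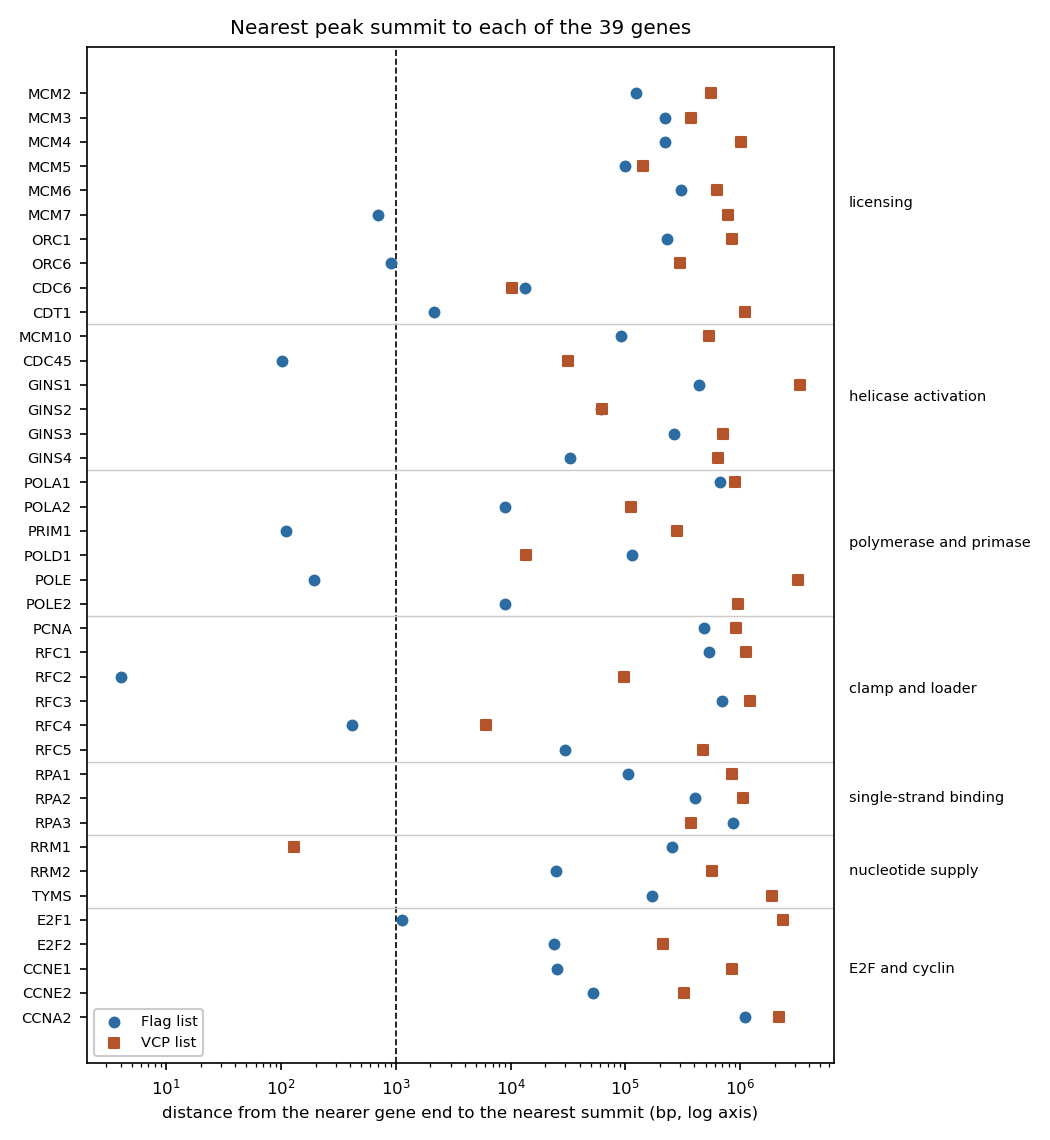
Distance in bp (log axis) from the nearer end of each of the 39 genes to the nearest summit of the Flag list (circles) and of the VCP list (squares), grouped by role, with a dashed line at 1 kb. The 7 Flag circles and the 1 VCP square left of the line are the marked genes, and ORC6 (912 bp) and E2F1 (1142 bp) lie on either side of it.

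Most of the 39 genes lay far from any peak. The median distance to the nearest Flag summit was 91.2 kb, beside 89.0 kb over all protein-coding genes. For the VCP list it was 628 kb, beside 517 kb. Within 10 kb of an end, 11 of the 39 genes had a Flag summit and 2 a VCP summit. The share of all protein-coding genes within that distance was not computed, so these counts have no level to be set beside. No summit of either list lay in the body of a replication gene more than 1 kb from both ends. The share of protein-coding genes with such a body summit was 6.75% in the Flag list and 2.35% in the VCP list, and both are under the 7.69% (3 counts) and the 9.03% (exact interval) that 0 of 39 allows. The median gene length was 24.0 kb for the 39 genes and 24.5 kb for all protein-coding genes.

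**Figure D2:**
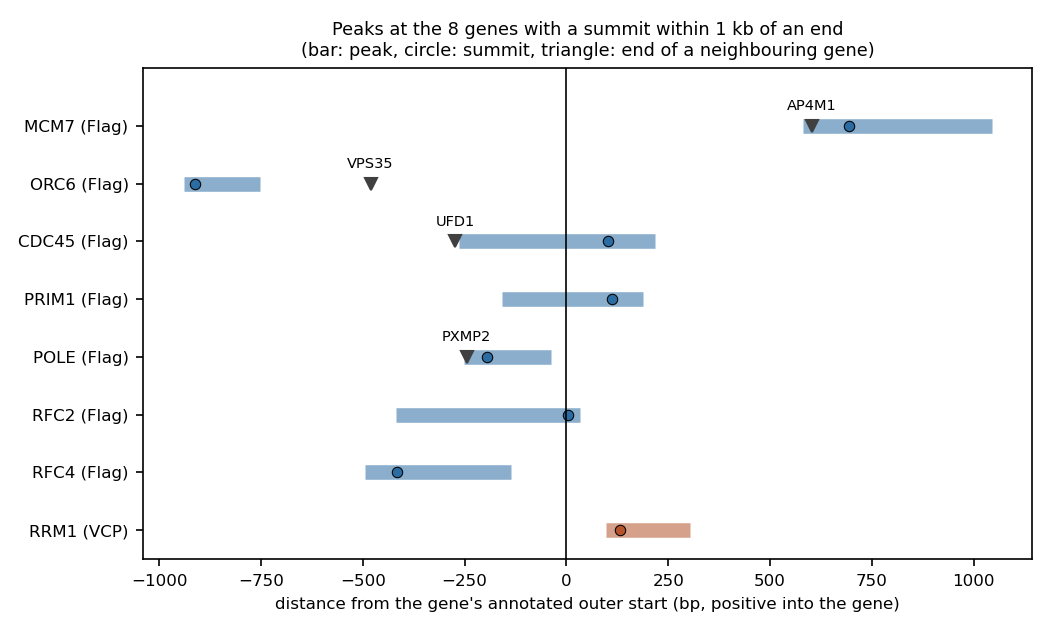
Peaks (bars) and summits (circles) at the 8 marked genes, by distance in bp from the annotated outer start, positive into the gene, with triangles at the ends of neighbouring protein-coding genes. The peaks of CDC45, PRIM1 and RFC2 cross the start, those of POLE, RFC4 and ORC6 lie before it, and those of MCM7 and RRM1 inside the gene.

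All 8 peaks lay at the start of the replication gene and none at its far end, 7 of 7 in the Flag list and 1 of 1 in the VCP list. Among protein-coding genes with a known strand and a Flag peak, 94.9% had it at the start, and 89.6% in the VCP list. Several peaks were shared with a neighbour: 4 of the 7 Flag peaks (57.1%) were within 1 kb of a second protein-coding gene, beside 19.9% of the 2027 Flag peaks at gene ends. These shares are not on the same footing. The 19.9% counts every peak once, whereas a list of genes can reach a shared peak through any of its genes. MCM7 shared its peak with AP4M1, ORC6 with VPS35, CDC45 with UFD1 and POLE with PXMP2. By outermost gene ends, the neighbour's end was the nearer one at MCM7, ORC6 and POLE. The MCM7 summit was nonetheless closer to another annotated start of MCM7 (51 bp) than to AP4M1 (91 bp). With each peak counted only for the gene with the nearest outermost end, 4 replication genes (10.3%, 2.87 to 24.2) had a Flag peak, beside 9.8% of all protein-coding genes. At these 4 shared peaks the replication gene and its neighbour cannot be told apart.

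In strength the 7 Flag peaks lay well within the range of Flag peaks at gene ends. Their median fold enrichment was 3.98 (range 3.51 to 4.54), beside 3.67 for all 2027, whose values ran from 2.18 to 25.3. The reads at their summits ranged from 9 to 20 with a median of 13, beside a median of 12. At a q of at most 0.05, 6 of the 39 kept a Flag peak (15.4%, 5.86 to 30.5), beside 5.53% of protein-coding genes, which lies just below that interval, and RFC4 was the gene lost. The genes were chosen with earlier results known, so this too is a description. At -log10 q of at least 5 the count was 0, beside 0.7%. With a 500 bp window it was 5 (beside 9.9%), without MCM7 and ORC6, with a 3 kb window it was 9 (beside 14.5%), with CDT1 and E2F1 added, and by annotated starts alone it was 7 of 33 (beside 12.6%). RRM1 did not keep its VCP peak at a q of at most 0.05, beside 0.272% of protein-coding genes.

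**Figure D3:**
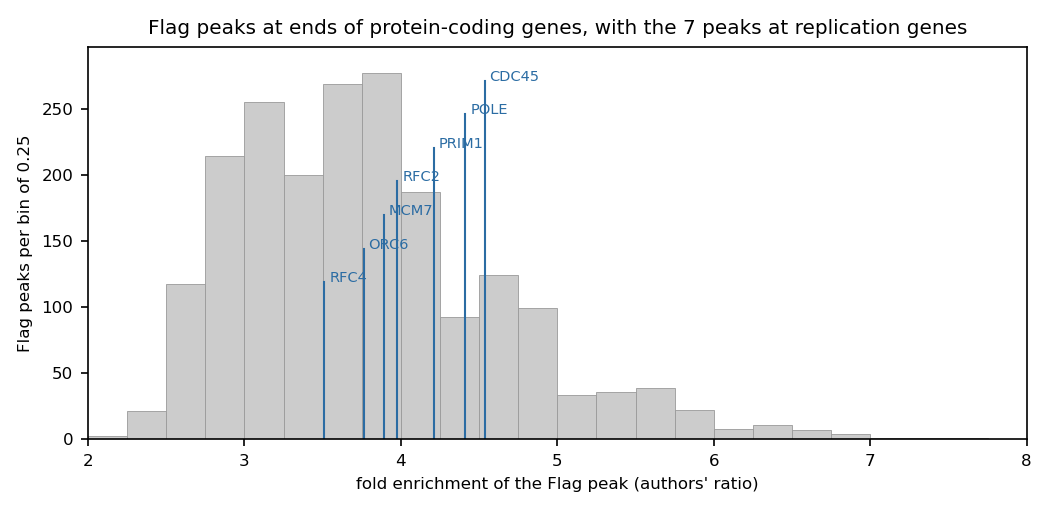
Number of Flag peaks at ends of protein-coding genes per bin of 0.25 in fold enrichment (the authors' ratio, grey), with the 7 peaks at replication genes as labelled lines, whose heights only separate the names. The lines run from 3.51 (RFC4) to 4.54 (CDC45), and 7 further grey peaks above a fold enrichment of 8 are outside the axis.

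The sequence motifs of replication promoters were measured independently of the peaks. Of the 39 genes 33 had a promoter in the RefSeq table, from 250 bases before to 50 after the outermost annotated start, and CCNE2, GINS4, MCM4, MCM5, RPA2 and RPA3 were not matched. The E2F motif was found in 16 of the 33 (48.5%) and in 3.05% of all 15842 protein-coding promoters. CCAAT boxes were found in 60.6% beside 36.4%, GC boxes in 75.8% beside 58.3%, ETS motifs in 15.2% beside 14.2% and the CHR element in 3.03% beside 12.2%. The median GC content of the 250 bases before the start was 68.0% beside 62.0%.

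The E2F motif occurred in promoters with and without a peak. It was found in 2 of the 7 genes with a Flag peak, MCM7 and POLE, and in 14 of the 26 without one. Those 14 included CDC6, CDT1, E2F1, MCM3, MCM6, PCNA, POLA1, TYMS, GINS1, GINS2 and GINS3, and several of them, such as CDC6 and E2F1 itself, are long known as E2F targets. Over all protein-coding genes the motif was found in 3.47% of promoters of genes with a Flag peak, beside 3.05% of all. ETS motifs were found in 23.1% of promoters of genes with a Flag peak, beside 14.2% of all, and among the 7 replication genes in RFC4 alone. With 7 genes these shares are descriptions.

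**Figure D4:**
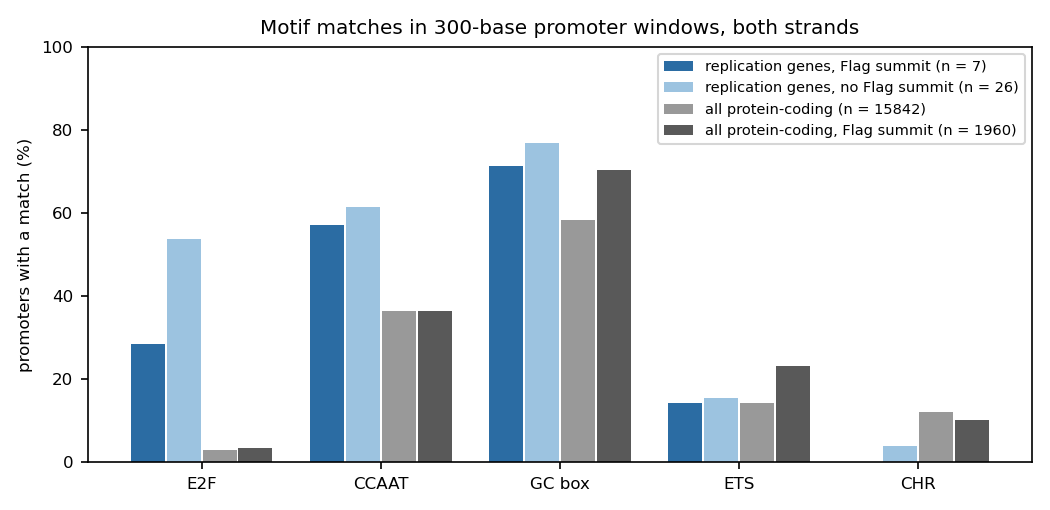
Share of promoters (%) with at least 1 match to each motif in 300-base windows, for the 7 replication genes with a Flag summit, the 26 without one, all 15842 protein-coding genes and the 1960 of them with a Flag summit. The E2F bars of both replication groups (28.6% and 53.8%) stand above those of the other groups (3.05% and 3.47%).

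A wider list of 86 other genes of replication and S-phase control gave Flag peaks at 20 (23.3%, 14.8 to 33.6), beside the 11.7% of all protein-coding genes, which lies below that interval, and VCP peaks at 4 (4.65%, 1.28 to 11.5), beside 2.34%. At a q of at most 0.05 the Flag count was 7 (8.14%, 3.34 to 16.1), beside 5.53%, a share inside the interval. It held 10 genes of helicase unloading, the step in which the ubiquitin ligase CUL2 with LRR1 marks the CMG helicase and VCP with UFD1 and NPLOC4 removes it. Of these, 6 had a Flag peak (60.0%, 26.2 to 87.8), 1 of them the peak already counted at CDC45. This is 1 of 7 roles of a list chosen with earlier results of these data known, so its share is a description. CUL2, the ligase scaffold, had the strongest, with a fold enrichment of 5.54, 15 reads and -log10 q of 4.59. Its summit lay 61 bp inside the outer end of CUL2 and 99 bp from CREM. Counted from the nearest annotated start of CUL2, the summit stood at -36331 bp, where a negative value lies before the start. By annotated starts alone CUL2 was therefore not marked. UFD1 shares the CDC45 peak described above. ELOB, an adaptor of the ligase, had a fold enrichment of 4.09 and -log10 q of 1.78, and LRR1, its substrate receptor, 3.59 and 1.29, at a summit 394 bp from the ribosomal protein gene RPS29. FAF1, a VCP cofactor at forks, had 2.96 and 0.458 (with its neighbour CDKN2C), and TRAIP, a fork ligase gene, 2.81 and 0.201 on 7 reads (2.81 to 14.4). At a q of at most 0.05, 3 of the 10 were left, CUL2, ELOB and UFD1. RBX1, NPLOC4 and UBXN7 had no peak in either list. ELOC, the partner of ELOB, had a VCP peak (fold enrichment 2.45, 13 reads over a background of 4.71, q = 0.870).

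**Figure D5:**
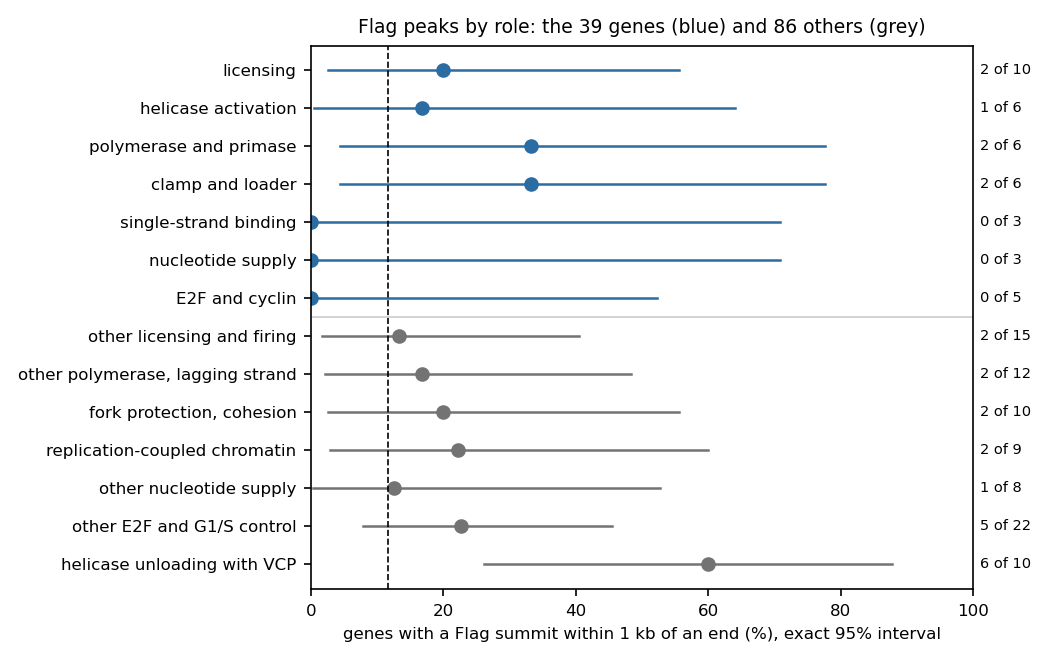
Share of genes (%) with a Flag summit within 1 kb of an end, by role, for the 39 genes (blue) and the 86 others (grey), with exact binomial 95% intervals and counts at the right. The dashed line is the 11.7% of all protein-coding genes, and the intervals are wide, from 1.66 to 40.5 for other licensing and firing and from 26.2 to 87.8 for helicase unloading.

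The remaining marked genes of the wider list were spread over its roles. Of its 20 Flag peaks, 10 were within 1 kb of a second protein-coding gene, beside 19.9% of all Flag peaks at gene ends. As above, the 19.9% counts every peak once and is not on the same footing. The shares of the 3 roles counted next have intervals that hold the 11.7% of all protein-coding genes. In other licensing and firing, 2 of 15 (13.3%) had a Flag peak: DBF4 (fold enrichment 2.45, q = 0.328) and CDC7 (3.51, q = 0.154). They encode the regulatory and catalytic subunits of the kinase that starts origins. The DBF4 summit lay 136 bp from DBF4 and 3 bp from its neighbour SLC25A40. Of the lagging strand and polymerase genes 2 of 12 (16.7%) had one, FEN1 (3.04), a flap nuclease, and POLD2 (3.43), a subunit of polymerase delta whose summit lay 877 bp from the outer end but 100 bp from an annotated start. WDHD1 (4.21), which ties polymerase alpha to the helicase, NASP (4.85), a histone chaperone, and SLBP (4.21), which binds histone mRNA, reached a q of at most 0.05. The WDHD1 summit lay 143 bp from WDHD1 and 6 bp from SOCS4. Of 22 genes of E2F and G1/S control 5 (22.7%) had a Flag peak: E2F5 (3.64), E2F6 (3.86), CDC25A (3.51), CUL4A (3.49) and RBL1 (4.21). The CUL4A summit lay 579 bp from the outer end of CUL4A but 0 bp from another annotated start. It was also 103 bp from PCID2.

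Both lists met at 2 of the 86, TIMELESS and RBL1 (2.33%, 0.283 to 8.15), beside 0.987% of protein-coding genes. In the wider list that is 2 of 4 genes with a VCP peak and 2 of 20 with a Flag peak, where among all protein-coding genes 42.2% of those with a VCP peak and 8.4% of those with a Flag peak were in both lists. TIMELESS encodes a subunit of the fork protection complex. Its VCP summit (fold enrichment 4.74, 12 reads, -log10 q 1.69) lay 133 bp inside the gene and its Flag summit (3.51, 9 reads, -log10 q 0.813) 83 bp inside. Both were also near the end of the neighbouring gene MIP, at 209 bp (VCP) and 159 bp (Flag). RBL1 encodes p107, a pocket protein that restrains E2F. Its VCP summit (4.01, 10 reads, -log10 q 0.697) lay 107 bp before the start and its Flag summit (4.21, 11 reads, -log10 q 1.87) 155 bp before it. At a q of at most 0.05 each of these genes kept 1 of its 2 peaks, TIMELESS the VCP one and RBL1 the Flag one. The other VCP peaks of the wider list were at ELOC and at RRM2B, a ribonucleotide reductase subunit gene induced by p53 (4.80, 13 reads over a background of 1.92, q = 0.00959). ELOC and RRM2B, like E2F5, lie on the long arm of chromosome 8, of which HCT116 is known to carry extra copies. Their local backgrounds were 4.71, 1.92 and 2.30 reads, where the lowest of each list was 1.74 (VCP) and 1.85 (Flag), and the part of copy number in these peaks was not tested.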

How the data were processed

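Peak lists of 1 VCP and 1 Flag library were used, and reads of the input were not used here. The submitters' processing notes name bcl2fastq 2.17, Trimmomatic 0.33, Bowtie 1.1.2, MACS2 2.1.0 and hg38. No source used here gives their settings. Each deposited peak has a fold enrichment (the authors' ratio of summit reads to local background, each with a pseudocount of 1), and -log10 p and -log10 q values by the authors' peak caller. The authors' score repeats -log10 p and was not used. The lowest deposited -log10 p was 3.00, so many peaks have a high q.

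Summits were assigned to the 19866 protein-coding genes of the RefSeq table of GRCh38.p14, and strand and starts came from its promoter table. Summit reads were recovered from that ratio as the whole number whose Poisson tail gave the deposited -log10 p. All 1816 and 5719 peaks matched within 0.001. Shares have exact Clopper-Pearson 95% intervals, with the limit of 3 counts given as well for a count of 0, and reads exact Poisson ones, which take reads as independent although PCR copies are not. The code was tested on simulated data, under Python 3.11.15, pandas 2.3.3 and scipy 1.17.1.

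The members and gene lists were chosen with earlier results of these data known, and no list was tested for enrichment. Named genes were the 39 and every gene of the wider list with a summit at an end, except 1 that is counted but not reported here. Alternatives were stricter q thresholds, other windows, annotated starts only, each peak counted for 1 gene, any base of the peak, and other overlap rules.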

Additional observations from a re-analysis of the deposited data

How the results depend on the processing

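The Flag count of 7 replication genes was between 5 and 9 with other windows, any base of the peak, annotated starts only, or a q of at most 0.05. It was 4 with each peak counted for the nearest gene, and 0 at -log10 q of at least 5. The VCP count of 1 was 0 at a q of at most 0.05 and 0 at -log10 q of at least 5, and 1 under the other 5 alternatives. The q thresholds keep fewer peaks, and the 500 bp window and the nearest gene fewer pairs of peak and gene, by construction, whereas the 3 kb window and any base of the peak keep more. The count of genes marked by both lists, and of genes whose VCP and Flag peaks overlap, was 0 under every alternative run. The median fold enrichment of the Flag peaks ranged from 3.98 to 4.21. No paired analysis was possible because each antibody has 1 library and no test was run. Peaks at replication genes rest on 8 to 20 reads each, which with 39 genes limits the precision of every share.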
